A study of Mus musculus with 8 samples.

Results

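The endoplasmic reticulum (ER) stress genes of macrophages were followed under C498, a compound that the study examined as an inhibitor of inflammatory signaling, and under lipopolysaccharide (LPS), a component of the bacterial outer membrane that stimulates macrophages through TLR4. They were 10 genes taken by symbol (Atf4, Ddit3, Atf3, Trib3, Asns, Chac1, Sesn2, Hspa5, Dnajb9 and Xbp1) from a table of 55801 genes, and all 10 were among the 12189 genes with a mean of at least 1 TPM (a transcript level corrected for gene length and scaled to the same total in every sample) that were tested. Primary peritoneal macrophages were flushed from the abdomen of male C57BL/6 mice that had been injected with thioglycollate, an irritant that draws macrophages into the peritoneal cavity, and mice of 6 to 8 weeks of age were used in the study. The cells received vehicle (NC group), LPS alone, C498 alone or C498 and LPS together. There were 2 samples in each of the 4 groups and 8 in all. C498 was given at 15 µM for 0.5 h, and LPS followed at 100 ng/ml for 4 h. The sources used here do not say how many mice gave the cells or whether the samples of a group were separate cultures, so the p-values below measure the spread between these samples, which may be technical. All groups share the thioglycollate injection, and a resting peritoneal population was not analysed here.

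Proteins that fold poorly in the ER activate the sensors PERK, IRE1 and ATF6, which together start the unfolded protein response. PERK phosphorylates the translation factor eIF2α, which slows protein synthesis in general while the transcription factor ATF4 is made in larger amounts; ATF4 then drives genes of amino acid supply together with the transcription factor CHOP, encoded by Ddit3. ATF6 and the spliced form of XBP1 raise ER chaperones such as BiP, encoded by Hspa5. In macrophages ATF3 is also known as a brake on genes induced through Toll-like receptors. ATF4 protein is set largely by translation and XBP1 activity by splicing, and neither is measured by the TPM level of the gene.

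The promoters are shown because 4 of the 10 genes carried the same short motif, and the values of those 4 are set side by side below. The C/EBP-ATF response element (CARE), searched as TGATGNAA on both strands, was found in the windows of Atf3, Chac1, Asns and Trib3, each running from 250 bases before to 50 bases after the RefSeq transcript start. It was found in 3.97% of the 32851 such windows of RefSeq genes on GRCm38.p6. The ER stress response element (ERSE), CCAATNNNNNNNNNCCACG, was found in the Hspa5 window and in 0.119% of all windows. The cAMP response element TGACGTCA (in 1.79% of windows) and the unfolded protein response element TGACGTGG (0.676%) were found in 0 of the 10 windows. The 250 bases before the start are printed 5′ to 3′ on the gene's own strand, with the matched bases in capitals. The Atf3 match lies from -110 to -103 relative to the start on the opposite strand, the Chac1 match from -193 to -186 on the opposite strand, and the Asns match from -23 to -16 on the same strand. The Hspa5 match lies from -65 to -47. The Trib3 match lies after the start and is not printed. The regions are chr1:191183334-191183583 (minus strand) for Atf3, chr2:119350992-119351241 (plus) for Chac1, chr6:7693210-7693459 (minus) for Asns and chr2:34771840-34772089 (plus) for Hspa5.
Atf3: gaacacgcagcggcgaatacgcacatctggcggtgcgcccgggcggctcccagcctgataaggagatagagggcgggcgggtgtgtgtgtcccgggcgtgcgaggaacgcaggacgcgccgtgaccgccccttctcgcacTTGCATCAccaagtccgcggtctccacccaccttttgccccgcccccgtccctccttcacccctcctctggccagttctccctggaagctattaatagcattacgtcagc
Chac1: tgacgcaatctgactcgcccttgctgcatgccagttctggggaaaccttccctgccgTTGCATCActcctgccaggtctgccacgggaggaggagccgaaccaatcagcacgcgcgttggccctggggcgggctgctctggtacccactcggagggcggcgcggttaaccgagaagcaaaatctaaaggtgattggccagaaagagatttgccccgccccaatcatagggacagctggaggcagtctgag
Asns: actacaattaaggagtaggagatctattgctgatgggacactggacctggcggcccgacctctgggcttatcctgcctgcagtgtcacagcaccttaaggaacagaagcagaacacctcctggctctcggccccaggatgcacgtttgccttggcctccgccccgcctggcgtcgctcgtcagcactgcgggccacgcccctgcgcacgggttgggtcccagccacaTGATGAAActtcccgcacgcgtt
Hspa5: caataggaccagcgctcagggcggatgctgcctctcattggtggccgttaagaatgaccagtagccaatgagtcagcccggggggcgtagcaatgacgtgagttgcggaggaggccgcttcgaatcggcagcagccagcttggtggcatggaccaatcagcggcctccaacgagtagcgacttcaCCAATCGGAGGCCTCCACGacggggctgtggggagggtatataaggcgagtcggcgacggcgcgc
A match describes these letters in this window and says nothing of binding in these cells.

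The samples carried the markers of macrophages. The 7 macrophage markers examined all had a mean of at least 1 TPM, and their summed level was 19847 to 20355 TPM in the NC group, 16586 to 17222 in the LPS group, 15253 to 15412 in the C498 group and 10626 to 12411 in the C498+LPS group. Lyz2 made up most of that sum, and some single markers differed from it in part of the groups. Adgre1 was at 666 and 574 TPM in NC and 723 and 652 TPM in LPS. Cd68 was at 2913 and 2669 TPM in NC and 2802 and 2877 TPM in C498. In C498+LPS both Adgre1 (408 and 323 TPM) and Cd68 (2419 and 2208 TPM) were below both NC samples. So were Csf1r (117 and 89.9 against 355 and 272 TPM) and Fcgr1 (37.6 and 42.9 against 107 and 145 TPM). Itgam and Lyz2 also lay below, and Mertk overlapped. Fibroblast markers moved with C498. The 6 fibroblast markers, 5 of which had a mean of at least 1 TPM while Lum was near 0, summed to 150.3 to 192 TPM in the NC group and 176 to 200.5 in the LPS group, against 633 to 750.04 in the C498 group and 618 to 911 in the C498+LPS group. The neutrophil list summed to at most 130.8 TPM in any sample, nearly all of it S100a8 (48.9 to 128 TPM), with Elane listed at 0 and S100a9, Mpo and Cxcr2 under 1 TPM in every sample, and the B cell, T cell, endothelial and mast cell or eosinophil lists to at most 13.8, 5.36, 7.16 and 6.81 TPM. Mesothelial markers summed to at most 1.83 TPM in the samples without C498 and to 5.53 to 10.7 TPM in those with it. Mitochondrially encoded genes took 2.19% to 2.39% of TPM in the NC group, 1.80% to 1.87% in the LPS group, 3.01% to 3.07% in the C498 group and 3.12% to 4.60% in the C498+LPS group. In bulk samples such as these, fewer cells of a type and less RNA per cell cannot be told apart. These values move with every C498 result below, and their part in those results was not tested.

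C498 alone raised Hspa5, Dnajb9 and Atf3 by 2-fold or more, while Ddit3, Asns and Xbp1 did not pass the test. Sesn2 and Atf4 also rose in C498 vs NC, where a gene is said to rise or fall at an adjusted p of at most 0.05 and is called a differentially expressed gene (DEG) if its fold change is also at least 2. Of the 10 genes 4 were upregulated DEGs and 0 were downregulated, where 5.64% of all tested genes were upregulated and 1.36% downregulated. By adjusted p 5 rose and 0 fell, where 9.29% of all tested genes rose and 6.19% fell. Both C498 samples lay above both NC samples for 6 of the genes (29.3% of all tested genes) and below for 1 (28.4%), and the groups overlapped for 3. The median log2 change of the 10 was 0.55, against 0.0145 for all tested genes.

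**Figure D1:**
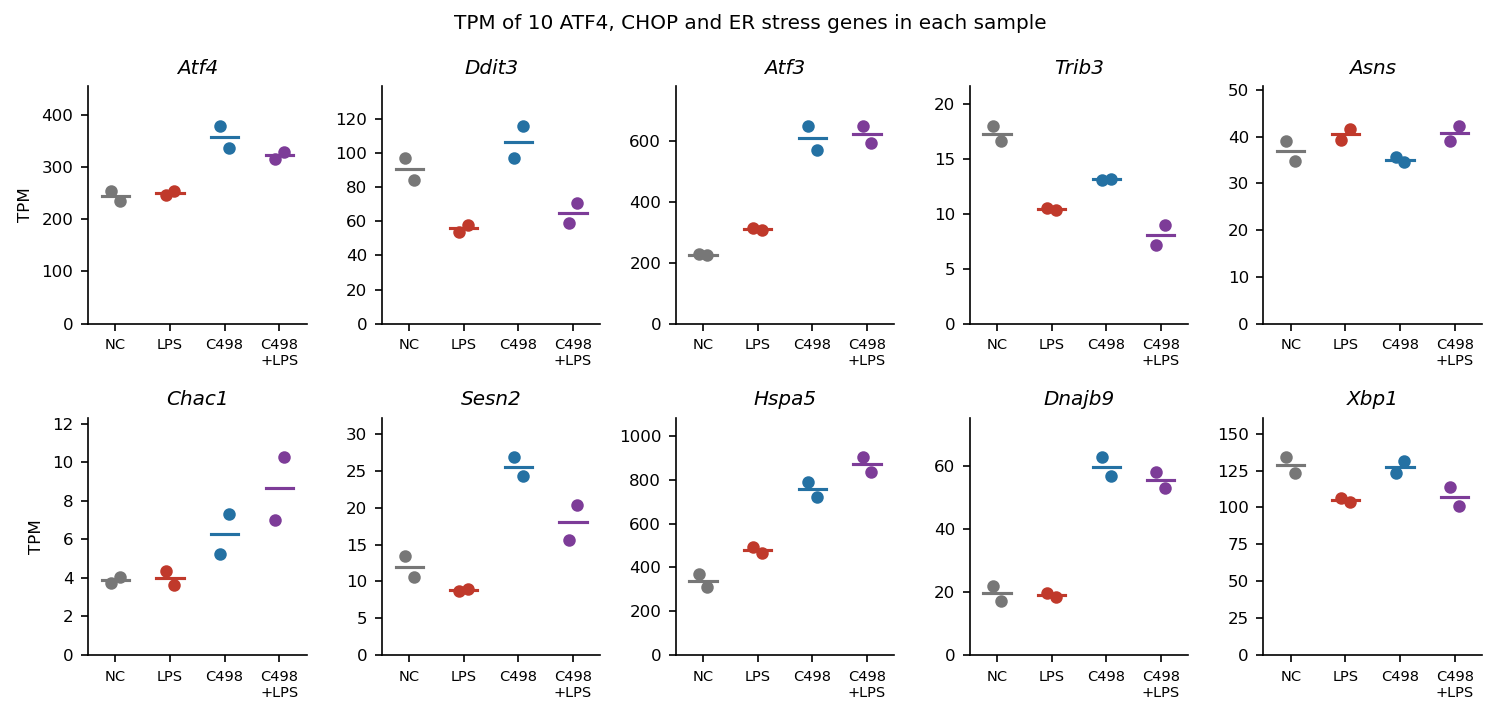
TPM level of each of the 10 genes (vertical axis, linear and separate for each panel) in the NC, LPS, C498 and C498+LPS groups, with a point for each sample and a bar for the mean of the 2 samples. Hspa5, Atf3, Atf4, Sesn2 and Dnajb9 stand higher in both groups given C498 than in the groups without it, and Ddit3 and Trib3 stand lower in the groups given LPS than in their counterparts without it.

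Among the chaperones, Dnajb9, a DnaJ cochaperone of BiP in the ER lumen, was at 22.0 and 17.3 TPM in the NC samples and at 62.9 and 56.9 TPM in the C498 samples. The groups were far apart, and the log2 change on the log2(TPM + 1) scale used throughout was 1.57 (95% interval 1.24 to 1.90, adjusted p = 0.000843), a ratio of mean TPM of 3.05. Hspa5, whose product BiP is the main Hsp70 chaperone of the ER and also holds the stress sensors inactive, was at 369 and 312 TPM in NC and at 792 and 722 TPM in C498. Both C498 samples lay above both NC samples, with a log2 change of 1.15 (0.91 to 1.40, adjusted p = 0.000899) and a ratio of 2.22. Xbp1, which encodes the transcription factor spliced by IRE1, was at 134 and 123 TPM in NC and at 124 and 131 TPM in C498. The groups overlapped, and the log2 change of Xbp1 was -0.01 with an interval of -0.24 to 0.22, so that a gene-level change beyond that interval was not seen in either direction.

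Among the transcription factors, Atf3, an ATF/CREB family repressor and activator induced by many stresses, was at 227 and 225 TPM in NC and at 648 and 569 TPM in C498. Its log2 change was 1.42 (1.21 to 1.64, adjusted p = 0.000241), a ratio of 2.70. Atf4 was at 253 and 234 TPM in NC and at 379 and 337 TPM in C498, so that the groups were again separate, with a log2 change of 0.55 (0.34 to 0.77, adjusted p = 0.00962). The Atf4 call was lost without C498 replicate 1 (adjusted p = 0.0792), with every sample centred on its median gene (0.0509) and in a fit of the NC and C498 samples alone (0.0658). Ddit3 was at 97.6 and 84.6 TPM in NC and at 97.2 and 116 TPM in C498. The Ddit3 samples of the groups overlapped, and the log2 change of 0.22 had an interval of -0.10 to 0.55 (adjusted p = 0.309).

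Among the targets of ATF4 and CHOP, Sesn2 rose and Chac1, Trib3 and Asns did not pass the test. Sesn2, whose product senses leucine and restrains mTORC1, was at 13.4 and 10.6 TPM in NC and at 26.9 and 24.3 TPM in C498, a log2 change of 1.04 (0.62 to 1.46, adjusted p = 0.011). That call was lost when a C498 sample was left out, with an adjusted p of 0.101 without replicate 1 and 0.0726 without replicate 2, and in a fit of the NC and C498 samples alone (0.0646). Sesn2 also dropped under the 2-fold threshold with an adjusted p still under 0.05 when samples were centred on the median gene (0.92), under quantile normalization (0.97) and without NC replicate 2 (0.88). Chac1, which encodes an enzyme that degrades glutathione, was the lowest of the 10 at 3.72 and 4.06 TPM in NC and 5.23 and 7.30 TPM in C498. Both C498 samples were higher, but the interval of the log2 change of 0.56 reached zero and the adjusted p was 0.158. Trib3, which encodes a pseudokinase that binds ATF4 and CHOP, was at 18.0 and 16.6 TPM in NC and at 13.1 and 13.2 TPM in C498, the 1 gene of the 10 with both C498 samples below both NC samples. Its log2 change of -0.37 (-0.72 to -0.02) had an adjusted p of 0.138. Asns, which encodes asparagine synthetase and is often taken as a readout of ATF4, was at 39.0 and 34.7 TPM in NC and at 35.6 and 34.5 TPM in C498. The Asns groups overlapped, with a log2 change of -0.07 and an interval of -0.33 to 0.19.

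Of the 4 genes with a CARE match in the window, Atf3 rose under C498 alone, Chac1 was higher without passing the test, and Trib3 and Asns had negative log2 changes that did not pass it. Sesn2, Dnajb9 and Atf4 rose with no match to any of the 4 motifs in these windows, which says only that those letters are absent there.

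The same question was asked under LPS by comparing C498+LPS with LPS, a comparison that shares no sample with C498 vs NC. Hspa5, Dnajb9, Atf3, Sesn2, Chac1 and Atf4 rose, 6 of the 10 genes, where 9.08% of all tested genes rose, and 0 fell, where 7.7% did. Only Dnajb9 was also past the 2-fold threshold and so an upregulated DEG, where 5.39% of all tested genes were upregulated DEGs and 2.18% downregulated. That count rests on the threshold, since Atf3, Sesn2 and Chac1 lay close under it with ratios of mean TPM of 2.00, 2.04 and 2.16: it was 4 with a pseudocount of 0.1, 3 without C498+LPS replicate 1, and 2 without C498+LPS replicate 2, without LPS replicate 1 or under quantile normalization. Dnajb9 was at 19.6 and 18.4 TPM in LPS and at 58.1 and 53.0 TPM in C498+LPS, and its log2 change was 1.5 (1.17 to 1.83, adjusted p = 0.00123). Hspa5 was at 492 and 468 TPM in LPS and at 904 and 838 TPM in C498+LPS, changing by 0.86 on the log2 scale (0.61 to 1.11, adjusted p = 0.00275). For both chaperone genes each C498+LPS sample lay above each LPS sample. Atf3 was at 314 and 306 TPM in LPS and at 649 and 594 TPM in C498+LPS, and its ratio of mean TPM was 2.00, with a log2 change that rounds to 1.00 but lay just under the 2-fold threshold (0.78 to 1.22, adjusted p = 0.00114).

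Atf4, Chac1 and Sesn2 rose in C498+LPS vs LPS with less certainty, keeping an adjusted p of at most 0.05 in 8, 8 and 14 of 17 fits, the one reported and 16 alternatives. Atf4 was at 247 and 254 TPM in LPS and at 316 and 329 TPM in C498+LPS, changing on the log2 scale by 0.36 (adjusted p = 0.0352), and leaving out any single sample of the LPS, C498 or C498+LPS groups took the adjusted p above 0.05, at most to 0.169. Chac1 was at 4.38 and 3.61 TPM in LPS and at 7.01 and 10.3 TPM in C498+LPS, changing on the log2 scale by 0.93 (0.37 to 1.49, adjusted p = 0.0378). Without C498+LPS replicate 2, the highest Chac1 sample of all, the log2 change was 0.69 and the adjusted p 0.21. Without LPS replicate 1 or 2 the adjusted p of Chac1 was 0.125 or 0.201, and without C498 replicate 1 or 2 it was 0.0634 or 0.0633. Sesn2 was at 8.74 and 8.92 TPM in LPS and at 15.6 and 20.4 TPM in C498+LPS, changing on the log2 scale by 0.94 (0.52 to 1.36, adjusted p = 0.0132). Its adjusted p rose to 0.0919 without LPS replicate 1, 0.0846 without LPS replicate 2 and 0.0969 without C498+LPS replicate 2.

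The other 4 genes did not pass the test in C498+LPS vs LPS. Ddit3 was at 54.1 and 57.7 TPM in LPS and at 59.1 and 70.9 TPM in C498+LPS, changing on the log2 scale by 0.21 with an interval of -0.12 to 0.54. Both C498+LPS samples were above both LPS samples, but the gap was small beside the spread. Trib3 was at 10.6 and 10.4 TPM in LPS and at 7.18 and 9.01 TPM in C498+LPS, again lower in both samples given C498, with a log2 change of -0.34 (-0.69 to 0.01, adjusted p = 0.173). Asns, at 39.3 and 41.7 against 39.0 and 42.4 TPM, and Xbp1, at 106 and 104 against 114 and 101 TPM, overlapped between the groups, with intervals of -0.25 to 0.26 and -0.20 to 0.26. Across both C498 comparisons 8 of the 10 genes had the same direction, as did 88 of the 105 tested pathway list genes described below. That share was not computed over all tested genes. Of the 10 genes, 5 (Atf3, Atf4, Sesn2, Hspa5 and Dnajb9) rose in both comparisons, where 5.8% of all tested genes did. Dnajb9 was an upregulated DEG in both, as were 3.5% of all tested genes. Both C498+LPS samples lay above both LPS samples for 7 of the genes (31.9% of all tested genes) and below for 1 (30.9%).

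**Figure D2:**
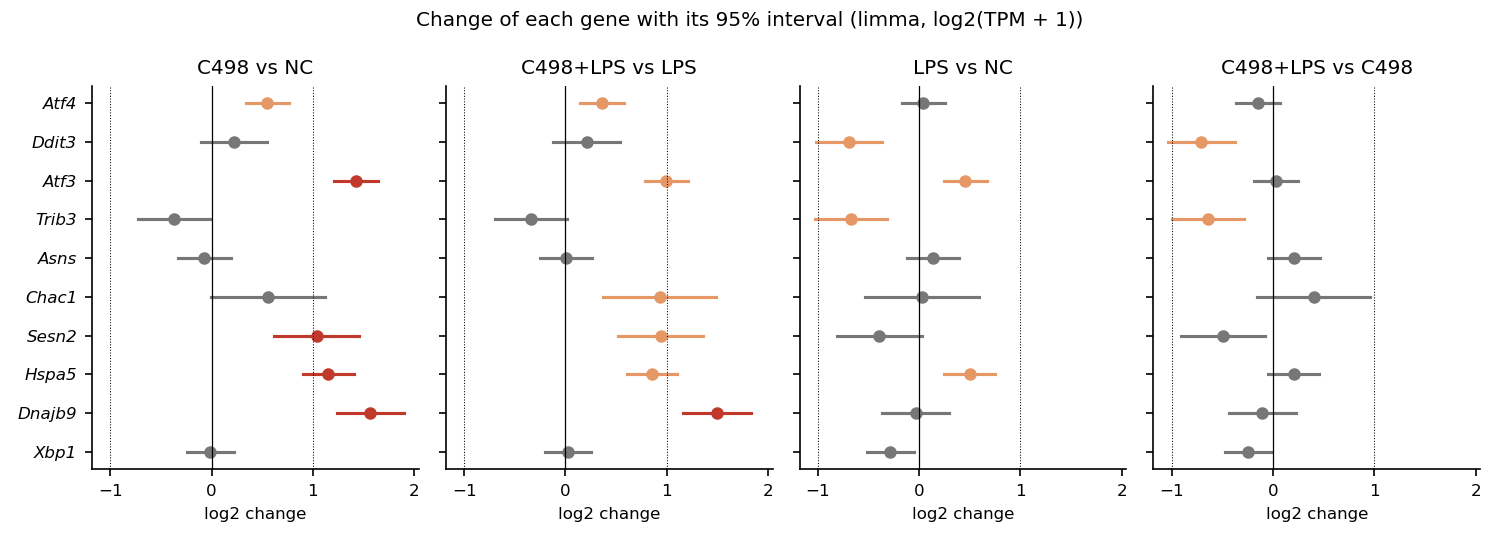
Log2 change of each of the 10 genes with its 95% interval (horizontal axis, log2 scale of TPM + 1) in LPS vs NC, C498 vs NC, C498+LPS vs LPS and C498+LPS vs C498, with red points for DEGs, orange points for an adjusted p of at most 0.05 alone, grey points for neither, and dotted lines at -1 and 1. Red points appear in the panels of the C498 comparisons (4 genes and 1 gene), and Ddit3 and Trib3 are orange and below 0 in both LPS comparisons.

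LPS alone moved 4 of the genes. In LPS vs NC, Atf3 and Hspa5 rose and Ddit3 and Trib3 fell, 2 genes in each direction, where 9.84% of all tested genes rose and 19.8% fell. Among the 10 there were 0 DEGs, where 5.55% of all tested genes were upregulated and 6.68% downregulated, and 5 of the 10 had an unadjusted limma p under 0.05, where 41.2% of all tested genes did. Both LPS samples lay above both NC samples for 3 of the genes (19.3% of all tested genes) and below for 4 (42.2%). Over all tested genes the median change in LPS vs NC was itself -0.17 on the log2 scale. Values with every sample centred on its own median gene are therefore given beside those as deposited. Ddit3 was at 97.6 and 84.6 TPM in NC and 54.1 and 57.7 TPM in LPS, with a log2 change of -0.69 (-1.02 to -0.36, adjusted p = 0.01) as deposited and -0.52 (adjusted p = 0.0423) centred. Trib3 was at 18.0 and 16.6 TPM in NC and 10.6 and 10.4 TPM in LPS, with a log2 change of -0.68 (adjusted p = 0.0146) and -0.51 (adjusted p = 0.0455) centred. For both genes the LPS samples lay below the NC samples with a wide gap. Atf3 changed by 0.46 (adjusted p = 0.0102; centred 0.63) and Hspa5 by 0.50 (adjusted p = 0.0125; centred 0.67), with the LPS samples above the NC samples. All 4 results rested on both LPS samples: without LPS replicate 1 the adjusted p was 0.07 for Atf3, 0.0721 for Ddit3, 0.0797 for Trib3 and 0.0844 for Hspa5, and without LPS replicate 2 it was 0.0546, 0.0504, 0.0837 and 0.0586. The Hspa5 call was also lost under quantile normalization (0.36, adjusted p = 0.0574), and in a fit of the NC and LPS samples alone both Hspa5 (adjusted p = 0.0619) and Trib3 (0.0666) lost it.

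Atf4, Asns, Chac1, Sesn2, Xbp1 and Dnajb9 did not pass the test in LPS vs NC. Atf4 had a log2 change of 0.04 with an interval of -0.17 to 0.26 (adjusted p = 0.776), and Dnajb9 one of -0.04 with an interval of -0.37 to 0.30. The direction of these near-zero changes depended on the scaling: centring gave 0.13 for Dnajb9 and quantile normalization gave -0.12 for Atf4. Xbp1 was lower in both LPS samples, with a log2 change of -0.29 (-0.52 to -0.06, adjusted p = 0.0652), and it passed the test under quantile normalization (-0.34, adjusted p = 0.0235).

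LPS given after C498 was compared with C498 alone, sharing no sample with LPS vs NC. Ddit3 and Trib3 fell again, 2 of the 10 genes, where 11.7% of all tested genes fell and 9.36% fell in both LPS comparisons, and 0 rose, where 4.51% did. Both C498+LPS samples lay above both C498 samples for 2 of the genes (17.4% of all tested genes) and below for 5 (48.8%). Ddit3 was at 97.2 and 116 TPM in C498 and at 59.1 and 70.9 TPM in C498+LPS, changing on the log2 scale by -0.71 (-1.04 to -0.38, adjusted p = 0.0172), with no overlap of the groups. Trib3 was at 13.1 and 13.2 TPM in C498 and at 7.18 and 9.01 TPM in C498+LPS, changing on the log2 scale by -0.64 (-1.0 to -0.29, adjusted p = 0.0296). The median change of all tested genes was -0.18 here. With every sample centred on its own median gene, neither Ddit3 (-0.49, adjusted p = 0.0791) nor Trib3 (-0.43, adjusted p = 0.113) passed the test. Hspa5, at 0.20 as deposited, then passed it at 0.42 (adjusted p = 0.0434). The Ddit3 call was also lost without C498 replicate 1 (adjusted p = 0.0577), without C498 replicate 2 (0.125) and without C498+LPS replicate 1 (0.0929). Trib3 stayed past the threshold in 7 of those 17 fits, and leaving out any sample of the LPS, C498 or C498+LPS groups gave an adjusted p of at most 0.16 and at least 0.0578. There were 0 DEGs among the 10 in this comparison, where 2.52% of all tested genes were upregulated and 3.13% downregulated, and 4 had an unadjusted limma p under 0.05, where 31.9% of all tested genes did.

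Set against the vehicle-treated NC cells, the combined treatment left 3 of the 10 genes upregulated DEGs (9.15% of all tested genes) and 1 a downregulated DEG (9.06%), and by adjusted p alone 6 rose (15.6%) and 2 fell (26.0%). Atf3 had a log2 change of 1.46 (adjusted p = 5.75e-05), Dnajb9 1.46 (adjusted p = 0.000349) and Hspa5 1.36 (adjusted p = 0.000138). Trib3 was the downregulated gene, at 17.3 TPM on average in NC and 8.10 TPM in C498+LPS (log2 change -1.02, adjusted p = 0.002). Its fold lay close to the threshold: centred on the median gene the change was -0.92, under quantile normalization -0.91, without NC replicate 1 -0.96 and without C498+LPS replicate 1 -0.87, and by each of these Trib3 fell but was not a DEG. The number of DEGs among the 10 was 3 to 5 when a sample was left out, the lowest without NC replicate 1 and the highest without NC replicate 2. Ddit3 was also lower than in NC cells, with a log2 change of -0.48 (adjusted p = 0.0285), while Atf4, its upstream activator, was higher at 0.40 (adjusted p = 0.0112). The Ddit3 result held in 8 of the 17 fits and was lost without NC replicate 1 (-0.38, adjusted p = 0.102) and without C498+LPS replicate 1 (-0.35, adjusted p = 0.147), and centred it was -0.39 (adjusted p = 0.0777). Without LPS replicate 1 or 2 its adjusted p was 0.0518 or 0.0522. The Atf4 result was lost without C498+LPS replicate 2 (0.38, adjusted p = 0.0594). Chac1 rose by 0.96 (adjusted p = 0.0166), with an adjusted p of 0.0524 without NC replicate 1 and 0.101 without C498+LPS replicate 2. Sesn2 rose by 0.55 (adjusted p = 0.0434), with an adjusted p of 0.144 without NC replicate 2, 0.228 without C498+LPS replicate 2 and 0.0776 to 0.0814 without any 1 sample of the LPS or C498 groups.

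Whether the C498 effect differed with LPS was tested as an interaction, and 0 of the 10 genes passed limma's adjusted threshold, where 0.492% of all tested genes did and 0.468% were also past the 2-fold threshold. Atf3 was the 1 gene with an unadjusted p under 0.05, where 11.1% of all tested genes had one, with an interaction of -0.43 on the log2 scale (-0.73 to -0.12, adjusted p = 0.306), and Chac1 had the highest value, 0.37 (adjusted p = 0.727). With 2 samples in each group these intervals are wide, and an equal effect with and without LPS is not shown by them.

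**Figure D3:**
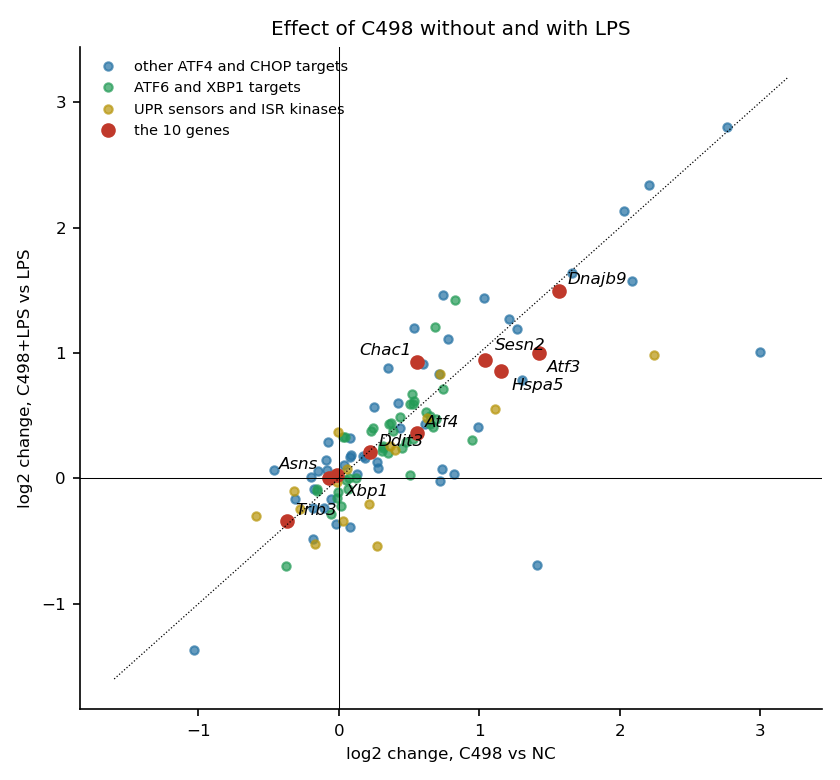
Log2 change in C498 vs NC (horizontal axis) against the log2 change in C498+LPS vs LPS (vertical axis), both on the log2(TPM + 1) scale, with the 10 genes in red, the genes of the 6 pathway lists in 3 colours by kind (sensors and kinases, ATF4 and CHOP targets, ATF6 and XBP1 targets) and a dotted line where both changes are equal. Dnajb9, Atf3, Hspa5 and Sesn2 lie in the upper right at 0.86 to 1.57 on both axes, Asns and Xbp1 near the origin and Trib3 below 0 on both.

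The order of the levels changed with treatment. In the NC group the mean TPM ran from Hspa5 (340.4) over Atf4 (244), Atf3 (226), Xbp1 (129), Ddit3 (91.1), Asns (36.9), Dnajb9 (19.7), Trib3 (17.3) and Sesn2 (12.0) to Chac1 (3.89), and of these neighbours the samples of Dnajb9 and Trib3 overlapped. In the LPS group Atf3 (310.2) stood above Atf4 (250.6) with no overlap of samples, and the other places were as in NC. In the C498 group Atf3 (609) again stood above Atf4 (358), Dnajb9 (59.9) above Asns (35.0) and Sesn2 (25.6) above Trib3 (13.1), in each case with no overlap of samples. In the C498+LPS group the lowest places were taken by Chac1 (8.64) and Trib3 (8.10), whose samples overlapped. The summed share of the 10 genes in all TPM was 0.106% to 0.118% in NC, 0.127% to 0.130% in LPS, 0.201% to 0.218% in C498 and 0.207% to 0.217% in C498+LPS, and most of the gain was in Hspa5 and Atf3. By mean over all samples, Hspa5, Atf3 and Atf4 lay above 97.7%, 96.9% and 95.6% of the tested genes, whereas Chac1 lay above 29.1%.

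Ddit3 carries a limit of annotation. Mars1, which encodes the methionyl-tRNA synthetase and averaged 46.5 TPM, overlaps its end on the opposite strand on chromosome 10 (GRCm38, Ddit3 at 127290774 to 127296288, plus strand), and the sources used here do not say whether reads were counted by strand. Mars1 was at 60.3 and 52.3 TPM in C498 and at 32.8 and 32.5 TPM in C498+LPS, and it fell in C498+LPS vs C498 (-0.76, adjusted p = 0.0215) and in C498+LPS vs NC (-0.68, adjusted p = 0.0135), as Ddit3 did. In LPS vs NC its log2 change was -0.29 (adjusted p = 0.216). Its part in the Ddit3 values was not tested. A second entry named Ddit3 was listed at 0 in all 8 samples and was not used.

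The other genes of the pathway were followed in 6 lists of 111 genes, 105 of which were tested. Together 33 of the 105 rose and 3 fell in C498 vs NC (median 0.32; all tested genes 9.29% and 6.19%), and 29 rose and 4 fell in C498+LPS vs LPS (median 0.26; 9.08% and 7.7%). The number that rose in both was 23, where 5.8% of all tested genes did. In LPS vs NC 10 rose and 18 fell, and in C498+LPS vs C498 3 rose and 16 fell, where 9.84% and 4.51% of all tested genes rose and 19.8% and 11.7% fell. At the 2-fold threshold 12 list genes were upregulated in C498 vs NC and 14 in C498+LPS vs LPS, of 105 tested, where 5.64% and 5.39% of all tested genes were. The first count was 7 without C498 replicate 1 and 7 without C498 replicate 2, and the second was 8 without LPS replicate 1, 8 without LPS replicate 2 and 9 without C498+LPS replicate 2. The upregulated DEGs among all tested genes fell in number too, from 687 to 274 and 309 without C498 replicate 1 and 2, and from 657 to 340 and 300 without LPS replicate 1 and 2 and 333 without C498+LPS replicate 2.

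**Figure D4:**
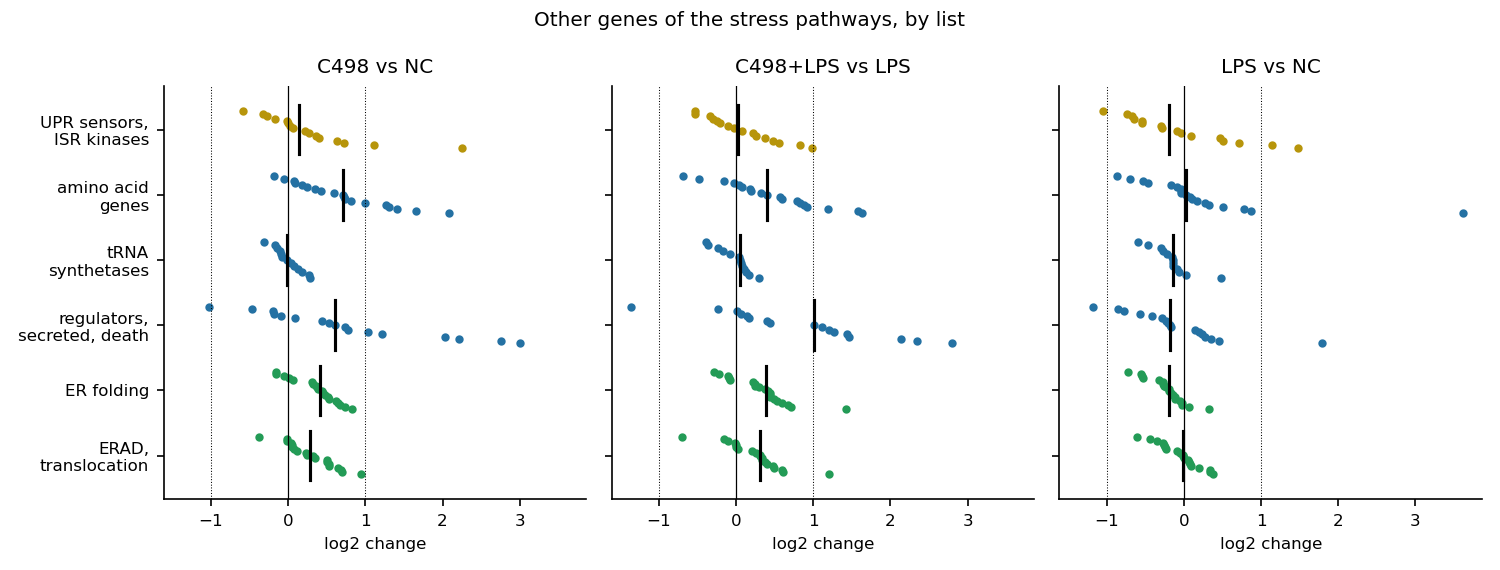
Log2 change (horizontal axis, log2(TPM + 1) scale) of each tested gene of the 6 pathway lists in C498 vs NC, C498+LPS vs LPS and LPS vs NC, with a point for each gene and a black bar for the list's median. The medians of the amino acid list (0.71 and 0.41) and of the regulator list (0.61 and 1.01) are the highest in the C498 comparisons, and those of the tRNA synthetases (-0.02 and 0.06) lie near 0.

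Among the stress sensors and eIF2α kinases, 1 of 16 genes rose and 1 fell in C498 vs NC, where 9.29% and 6.19% of all tested genes did. The gene that rose was Ppp1r15a, which encodes GADD34, the subunit that brings a phosphatase to eIF2α. It was at 32.8 and 25.6 TPM in NC, 157 and 127 in C498, 58.1 and 72.9 in LPS and 124 and 136 in C498+LPS, and it rose in C498 vs NC (log2 change 2.25, adjusted p = 0.000433), in LPS vs NC (1.14, adjusted p = 0.00322) and in C498+LPS vs LPS (0.99, adjusted p = 0.0101). Eif2ak2, which encodes the double-stranded RNA-activated kinase PKR, rose in LPS vs NC (log2 change 1.48, adjusted p = 0.00825) from 28.4 and 14.6 TPM to 64.3 and 53.7 TPM, but not without LPS replicate 1 (adjusted p = 0.069) or in a fit of the NC and LPS samples alone (0.0629). The gene that fell in C498 vs NC, named after its values were seen, was Oma1, a mitochondrial protease that can signal to eIF2α kinases (log2 change -0.59, adjusted p = 0.0454), and it also fell in LPS vs NC (-1.05, adjusted p = 0.00299). In C498+LPS vs LPS 2 of the 16 rose and 1 fell, where 9.08% and 7.7% of all tested genes did.

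Among the ATF4 and CHOP targets for amino acid synthesis and transport, 9 of 19 rose and 0 fell in C498 vs NC. In C498+LPS vs LPS 6 rose and 1 fell. Of all tested genes, 9.29% rose and 6.19% fell in the first comparison and 9.08% and 7.7% in the second. Slc38a2, a transporter of neutral amino acids, was at 40.0 and 21.2 TPM in NC, 140.4 and 115 in C498, 31.6 and 27.7 in LPS and 87.0 and 93.7 in C498+LPS. Its log2 change was 2.09 (adjusted p = 0.00359) and 1.58 (adjusted p = 0.00876), with samples given C498 above all others. Cth, which encodes cystathionine gamma-lyase, was under 1 TPM in all 4 samples without C498 and at 3.14 to 5.39 TPM in the 4 samples with it. The Slc38a2 call was lost without C498 replicate 1 (adjusted p = 0.0523) and in a fit of the NC and C498 samples alone (0.0548), and under LPS without LPS replicate 1 or 2 (0.0576, 0.0753) and without C498+LPS replicate 2 (0.0806). The Cth calls (log2 change 1.66 and 1.64) were lost without a C498 sample (adjusted p = 0.0628, 0.0567) or an LPS sample (0.0523, 0.0569). Slc7a11, the light chain of the cystine and glutamate exchanger, was the gene of this list that LPS moved most, from 17.4 and 8.54 TPM in NC to 180 and 144 TPM in LPS (log2 change 3.61, adjusted p = 0.000396). It was at 38.9 and 30.1 TPM in C498 (1.41 against NC, adjusted p = 0.0322) and at 123 and 79.9 TPM in C498+LPS, where both samples lay below both LPS samples (-0.69 against LPS, adjusted p = 0.214).

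Of the tRNA synthetases, also known ATF4 targets, 0 of 13 passed the limma test in C498 vs NC and 0 in C498+LPS vs LPS, where 9.29% and 9.08% of all tested genes rose. At an unadjusted p under 0.05 there were 0 and 3, and the 3, named after their values were seen, were lower in C498+LPS than in LPS (Aars -0.23, Mars1 -0.39 and Wars -0.36 on the log2 scale). The share of all tested genes at that unadjusted p was not computed for these comparisons. The difference of the synthetases from the transporters was not tested.

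Of 17 regulators, secreted factors and cell death genes of the ATF4 and CHOP arm, 8 rose and 1 fell in C498 vs NC. In C498+LPS vs LPS 9 rose and 1 fell. The shares of all tested genes were 9.29% and 6.19% in the first comparison and 9.08% and 7.7% in the second. Gdf15, a secreted stress cytokine of the TGF-beta superfamily, was at 37.4 and 41.4 TPM in NC, 359 and 289 in C498, 139 and 137 in LPS and 299 and 261 in C498+LPS. It rose with C498 (log2 change 3.0, adjusted p = 3.94e-05), with LPS (1.79, adjusted p = 0.000129) and with C498 under LPS (1.01, adjusted p = 0.00303). Vegfa, the angiogenic growth factor, was at 24.3 and 17.2 TPM in NC, 145 and 144 in C498, 8.42 and 8.58 in LPS and 63.8 and 66.6 in C498+LPS. It rose with C498 in both settings (2.76, adjusted p = 0.000149, and 2.80, adjusted p = 0.000279) and fell with LPS in NC cells (-1.17, adjusted p = 0.00202). Ddit4, which encodes the mTORC1 inhibitor REDD1, was at 4.38 and 5.35 TPM in NC against 24.3 and 27.9 in C498, and at 5.61 and 6.14 in LPS against 29.7 and 38.4 in C498+LPS, with log2 changes of 2.21 (adjusted p = 0.000518) and 2.34 (adjusted p = 0.000617). The gene of this list that fell, named after its values were seen, was Txnip, which binds thioredoxin (log2 change -1.03, adjusted p = 0.00115, and -1.36, adjusted p = 0.000598).

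Among the ATF6 and XBP1 targets, of 20 ER chaperone and folding genes 9 rose and 0 fell in C498 vs NC (median 0.41). In C498+LPS vs LPS 8 rose and 0 fell (median 0.39). The shares of all tested genes were 9.29% and 6.19%, then 9.08% and 7.7%. Pdia5, a disulfide isomerase, was the 1 DEG among the 20, at 2.91 and 3.45 TPM in LPS against 9.33 and 11.1 TPM in C498+LPS (log2 change 1.42, adjusted p = 0.00327). Its change in C498 vs NC was 0.82 (adjusted p = 0.0273). Hspa5 thus changed by more than the median of the chaperones in both C498 comparisons, and whether it differs from them was not tested. In LPS vs NC 0 of these 20 rose and 4 fell, where 9.84% and 19.8% of all tested genes did. Of 20 genes of ER-associated degradation and translocation 6 rose and 1 fell in C498 vs NC (9.29% and 6.19% of all tested genes). In C498+LPS vs LPS 4 rose and 1 fell (9.08% and 7.7% of all tested genes). The gene that fell in both, named after its values were seen, was Derl2, a channel component of ER-associated degradation (log2 change -0.38, adjusted p = 0.0278, and -0.70, adjusted p = 0.00261). Sec61g, a subunit of the Sec61 translocon, had a log2 change of 1.21 in C498+LPS vs LPS (adjusted p = 0.0321), a call lost without LPS replicate 1 or 2 (adjusted p = 0.19, 0.0871), C498 replicate 1 or 2 (0.0774, 0.0773) or C498+LPS replicate 2 (0.204), with no filter on low values (0.0881), with centring (0.0742), with quantile normalization (0.077) and in a fit of these groups alone (0.0644).

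The genes most like Ddit3 and most like Hspa5 over the 8 samples were different. Likeness was the root mean square difference of log2(TPM + 1) after each gene was centred on its own mean, over 11883 other genes. The 5 genes nearest to Ddit3 were Wdr6 (0.0952), Id3 (0.1), Suox (0.106), Ift88 (0.107) and Idh2 (0.109), and its nearest fellow among the 10 was Xbp1, at rank 1527 (0.269). The 5 nearest to Hspa5 were Sde2 (0.0915), Hsp90aa1 (0.0974), Coq10b (0.105), H3f3b (0.107) and Tgif1 (0.108), and Atf3 stood at rank 13 (0.134). Ddit3 itself was at rank 6579 from Hspa5 (0.675).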

How the data were processed

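Gene expression of mouse peritoneal macrophages was measured by RNA sequencing on an Illumina platform in 8 samples, 2 per group as labelled. Per the study's methods the authors used fastp for read filtering, HISAT2 for alignment, StringTie for assembly and RSEM for quantification, and the deposited table holds the resulting TPM per gene. Versions, genome build, annotation and strandedness are not given in the sources used here. TPM keeps no read depth, so the depth behind a value is unknown. Between 17528 and 18975 genes were above 0 per sample. The authors' group means and annotation columns were not used as measurements, and 0 columns of sample values were left unmapped.

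Genes with a mean of at least 1 TPM (12189) were fitted with limma (version 3.58.1, R 4.3.3) on log2(TPM + 1) with a variance trend, over all 4 groups in 1 fit. A pseudocount of 1 understates the fold change of low genes. Tests were two-sided and p-values were adjusted by Benjamini-Hochberg over all tested genes. A DEG had an adjusted p of at most 0.05 and a fold change of at least 2. An exact permutation test of 2 against 2 samples cannot give a p under 0.333. The 10 genes, the 6 lists and the markers were chosen with earlier results of these data known, and no list was tested as a set. Besides the 10 genes, the text names the list genes past the DEG thresholds with the largest changes of each list and comparison, and the 5 genes most like Ddit3 and Hspa5. Replicates correlated at r of 0.962 to 0.981 across genes, which are not independent. On simulated data for C498 vs NC over 12189 genes the fit recovered 90 of 100 genes changed by 1.5 on the log2 scale, with 6 unchanged genes called, and smaller changes were not simulated. RefSeq supplied the promoter windows (GRCm38.p6) and GENCODE M21 the gene positions (GRCm38). Alternatives covered the pseudocount (0.1), the filter (none, 5 TPM), scaling, the variance trend, the samples fitted, the replicate number as a block and each sample left out.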

Additional observations from a re-analysis of the deposited data

Results flagged for a closer look

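Gdf15, a secreted stress cytokine among the ATF4 and CHOP targets, had a smaller C498 effect in cells that also received LPS, and the difference itself was tested as an interaction in the limma fit (-1.99 on the log2 scale, adjusted p = 0.0128). All 4 samples given C498 were above all 4 samples without it. Gdf15 was the 1 of 105 tested list genes past the adjusted threshold for the interaction, where 0.492% of all tested genes were. The adjusted p was 0.0566 without the variance trend, 0.0891 without LPS replicate 1 and 0.0611 without LPS replicate 2.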

How the results depend on the processing

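Without the 2-fold threshold the genes past the adjusted p numbered 4 in LPS vs NC, 6 in C498+LPS vs LPS, 2 in C498+LPS vs C498 and 8 in C498+LPS vs NC. In that order, the shares of all tested genes that rose were 9.84%, 9.08%, 4.51% and 15.6%. Those that fell were 19.8%, 7.7%, 11.7% and 26.0%. In C498+LPS vs LPS the 1 DEG became 4 with a pseudocount of 0.1 and 2 under quantile normalization, and leaving out a sample gave 1 to 3. Atf3 lay just under the fold threshold there. In C498 vs NC the 4 DEGs ranged from 3 to 4 when a sample was left out and were 3 with centring on the median gene, with quantile normalization and in a fit of these groups alone. By the interaction 0 of the 10 genes were DEGs in the settings run, and the adjusted p of Atf3 ran from 0.151 to 0.722. Of 1131 single-gene values recomputed, 1002 kept their direction and side of the threshold, 106 lost the threshold, 2 gained it and 21 reversed. The reversals were all of changes that had not passed the test. In LPS vs NC quantile normalization gave -0.12 for Atf4 and 0.11 for Dnajb9, and centring on the median gene gave 0.13 for Dnajb9. In C498+LPS vs LPS centring gave -0.071 for Asns and -0.049 for Xbp1. In C498+LPS vs C498 quantile normalization gave -0.030 for Atf3, and centring gave 0.066 for Atf4 and 0.11 for Dnajb9. When a sample was left out, the change in LPS vs NC ran from -0.016 to 0.099 for Atf4, -0.084 to 0.14 for Chac1 and -0.20 to 0.13 for Dnajb9. In C498 vs NC it ran from -0.15 to 0.011 for Asns and -0.074 to 0.049 for Xbp1, in C498+LPS vs LPS from -0.052 to 0.064 for Asns and -0.057 to 0.11 for Xbp1, and in C498+LPS vs C498 from -0.062 to 0.13 for Atf3. The cause of these changes was not tested. With the replicate number as a block the DEGs among the 10 genes were 0, 4, 1, 0, 4 and 0 in LPS vs NC, C498 vs NC, C498+LPS vs LPS, C498+LPS vs C498, C498+LPS vs NC and the interaction, as without it. Deviations of samples with the same number correlated at 0.0397 to 0.168 between groups, so the numbers were not taken to pair the samples. TPM gives no depth, so the counting error of low genes such as Chac1 is unknown.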
